A study of Mus musculus with 12 samples.

Results

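The 36 genes described here code for the proteins that bring fatty acids into cells and oxidise them, with 3 regulators of their transcription. They were taken by symbol from a table of 47730 features, in which all 36 were found, and were followed over 4 groups of 3 mouse RNA-seq libraries. The animals were male mice of the strain C57Bl/6J, backcrossed for at least 10 generations and aged 5 to 6 months, with a different number for each mouse of a group in the column names. What the M allele changes in the gene is not given in the sources used here. The groups were skeletal muscle (gastrocnemius and plantaris combined) of BckdkM/M mice, which the sample titles call KO, muscle of Bckdk+/+ wild-type mice, testis labelled BckdkM/M, and testis of Bckdk+/+ mice. Tissue was taken between ZT6 and ZT7. A letter stands for each mouse number. Mice D, F, G gave mutant muscle and D, E, F testis labelled mutant, and A, B, C gave both wild-type tissues.

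Fatty acids released from circulating lipoproteins by lipoprotein lipase enter cells with the help of CD36 and are held in the cytosol by fatty acid-binding proteins. Acyl-CoA synthetases activate them, the carnitine shuttle carries the acyl groups into mitochondria, and beta-oxidation shortens them in repeated cycles of dehydrogenation, hydration, a further dehydrogenation and thiolysis. Working muscle is known for a high capacity of this pathway. Bckdk encodes the kinase that inhibits the branched-chain ketoacid dehydrogenase, an enzyme of branched-chain amino acid breakdown and thus of another mitochondrial fuel.

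The files held 12852427 to 15795722 counted reads per library. Values are normalised counts, which are read counts divided by a size factor for each library, and means are given ± SD with n = 3 libraries per group. Bckdk was at 14.8, 14.3 and 12.4 in mutant muscle (D, F, G), against 2214, 2421 and 2627 in wild-type muscle (A, B, C). In testis it was at 138, 119 and 114 in the libraries labelled mutant, against 68.0, 73.3 and 71.0 in wild type. NeoR, a neomycin resistance gene listed in the table, was at 251, 208 and 266 in mutant muscle, against 2.28, 3.25 and 3.85 in wild-type muscle. In testis it was at 13.1, 19.9 and 18.6 in the libraries labelled mutant, against 1.76 to 3.34 in the 3 wild-type libraries, with no overlap (log2 difference 2.37, 95% interval 1.35 to 3.39, adjusted p = 0.374, limma). In testis, then, NeoR ran with the labels and Bckdk did not, and the testis groups are given by label. The summed level of 10 fast-fibre markers in testis was 0.0144% to 0.642% of that in wild-type muscle, and the sum of 10 germ-cell markers in muscle was 0.549% to 1.49% of that in wild-type testis, so both tissues carried their defining markers. Mutant muscle F and G had islet marker sums of 32737 and 30843, and the other 4 muscle libraries 13621 to 16105. Wild-type testis A and B had sums of 19634 and 19551, and the other 4 testis libraries 10786 to 14013. Mitochondrially encoded genes took 11.5% of the reads in mutant muscle G and 7.65% to 8.21% in the other 5 muscle libraries.

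The 36 genes together made up 0.608% of all normalised counts in mutant muscle, 0.503% in wild-type muscle, 0.221% in testis labelled mutant and 0.225% in wild-type testis. Levels of different genes are compared per kilobase of exon (GENCODE M21), with all annotated exons of a gene merged. Orders and shares between genes depend on this scale. On that scale Fabp3, the fatty acid-binding protein of heart and muscle, stood first of the 36 in all 4 groups, at 9453 ± 3133 in mutant muscle, 6586 ± 1109 in wild-type muscle, 1170 ± 153 in testis labelled mutant and 1088 ± 65.6 in wild-type testis. Etfa, Acadvl and Acadl followed it in muscle. In testis the second place was taken by Acsl1, at 1092 ± 34.2 in testis labelled mutant and 1074 ± 29.5 in wild-type testis, and the third by Hadha. These Acsl1 means were close to those of Fabp3, and in some testis libraries Acsl1 stood above Fabp3. Acot1, a cytosolic acyl-CoA thioesterase, was last in all 4 groups, at 3.22 ± 1.28 per kilobase in mutant muscle, 4.21 ± 1.11 in wild-type muscle, 1.90 ± 0.38 in testis labelled mutant and 2.69 ± 0.80 in wild-type testis. The median gene of the 36 stood at 373 per kilobase in mutant muscle, 380 in wild-type muscle, 77.9 in testis labelled mutant and 70.9 in wild-type testis.

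**Figure D1:**
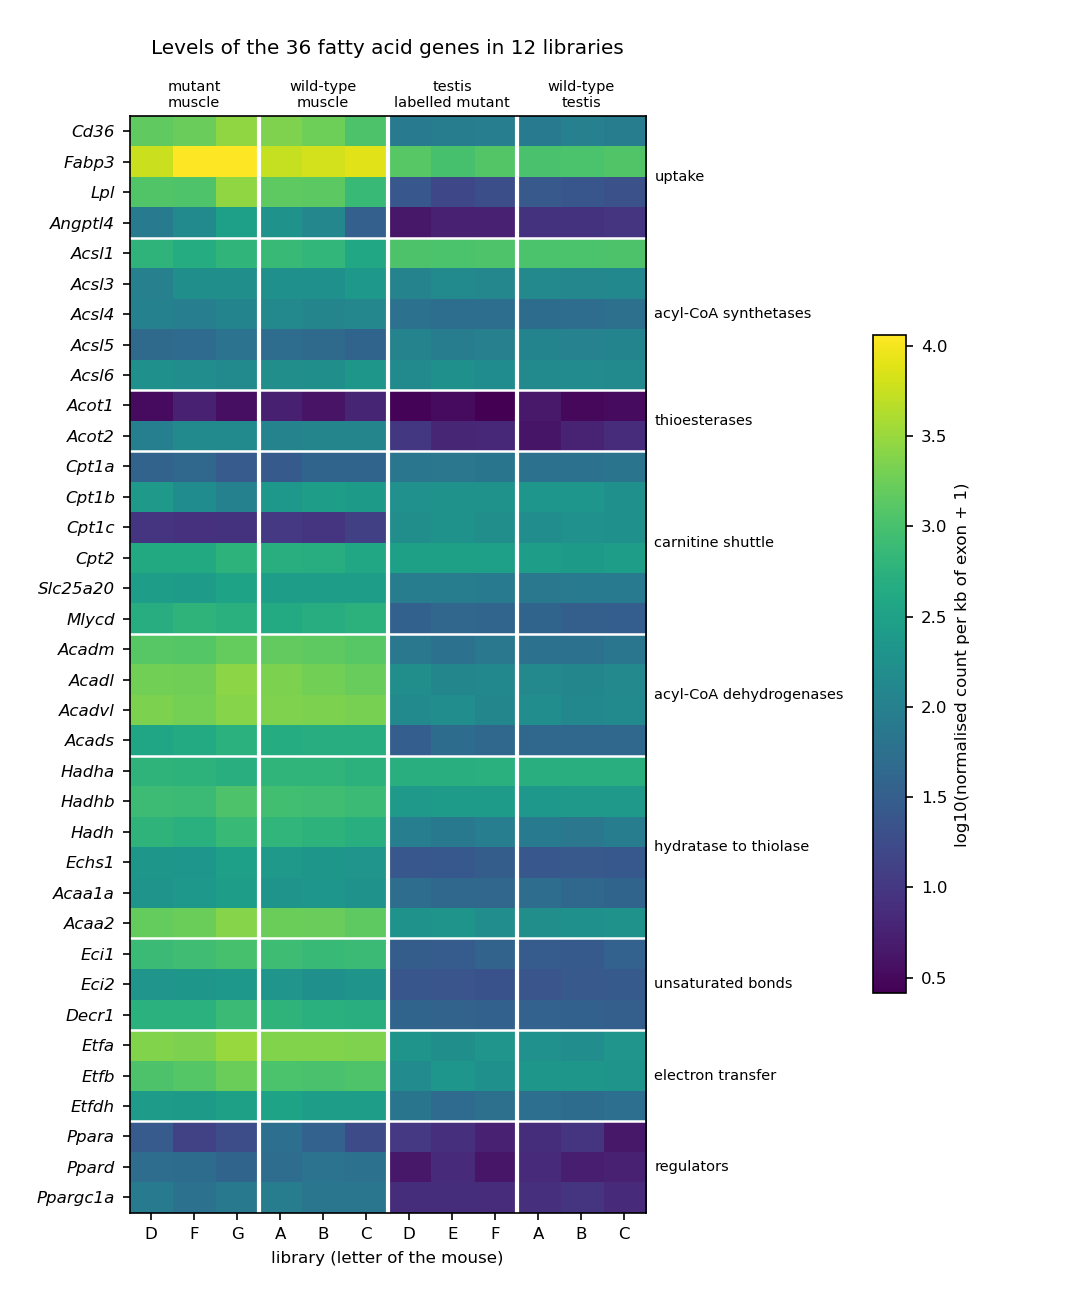
Level of each of the 36 genes (rows, by role) in each of the 12 libraries (columns, letter of the mouse), as log10(normalised count per kb of exon + 1) on the colour scale. Fabp3 is the brightest row in muscle, and in testis it and Acsl1 are the brightest. Acot1 is at or near the dark end throughout. Most rows below the synthetases are brighter in muscle than in testis, with Cpt1c and Acsl1 the other way.

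Wild-type muscle was compared with wild-type testis to show which of these genes stand higher in muscle than in testis in the unaltered animal. Of the 36, 31 were higher in muscle and 4 lower at an adjusted p below 0.05 (limma on log2(normalised count + 1), Benjamini-Hochberg over 21114 genes). The background was large. Of all genes tested, 87.5% were called, 36.5% as higher and 51.1% as lower in muscle. Wild-type libraries of the tissues did not overlap for 35 of the 36 genes, as for 88.9% of all genes. The median log2 difference of the 36 genes was 2.71, and that of all genes tested was -0.54. In bulk tissue, fewer cells of a type and less RNA per cell cannot be told apart, and the p-values measure the spread between these libraries.

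Genes of uptake stood far higher in muscle. Lpl, the lipase that frees fatty acids from lipoproteins at the vessel wall, was at 14798, 14212 and 7856 in wild-type muscle (A, B, C), against 274, 242 and 207 in wild-type testis of the same mice. The lowest muscle library, C, was still above all testis libraries, and the log2 difference of 5.62 (SE 0.24, adjusted p = 1.12e-07, limma) was the largest among the 36. Cd36, the membrane transporter of long-chain fatty acids, was at 8012, 6354 and 3909 in muscle, against 304, 357 and 309 in testis (log2 difference 4.17, SE 0.23, adjusted p = 5.86e-07, limma). C was again the lowest muscle library, and the groups did not overlap. Angptl4, a secreted inhibitor of lipoprotein lipase, was at 685, 437 and 116 in muscle, against 28.2, 27.5 and 29.2 in testis. Fabp3 averaged 5421 ± 912 in muscle and 896 ± 53.9 in testis.

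Beside these muscle levels stand the markers of fat cells. The summed level of 12 fat cell markers, none of them at 0, stood at 75046, 58169 and 21611 in muscle of the wild-type mice A, B, C, so that C had the lowest sum as it had the lowest Lpl, Cd36 and Angptl4. In wild-type testis the sum was 6421 to 6428. The most abundant of the 12 was Car3 in every muscle library and Lipe in every testis library. A different gene thus led the sum in each tissue, and how much of either came from fat cells was not tested. The sum of 10 endothelial markers, none at 0, was 9848, 9571 and 8856 in wild-type muscle and 762, 866 and 610 in wild-type testis, and all 10 were called higher in muscle, with a median log2 difference of 3.70. The part of fat cells or of vessels in the tissue difference of the uptake genes was not tested.

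The 5 acyl-CoA synthetases, which activate fatty acids by joining them to coenzyme A, did not share a direction between the tissues. Acsl1 was at 7870, 7069 and 4018 in wild-type muscle (A, B, C), against 10953, 11245 and 11572 in wild-type testis, lower in every muscle library (log2 difference -0.89, SE 0.23, adjusted p = 0.00607, limma). Acsl5 was at 249, 224 and 182 in muscle, against 556, 520 and 553 in testis (log2 difference -1.32, SE 0.13, adjusted p = 1.61e-05, limma). Acsl4, which prefers arachidonic acid, and Acsl3 were higher in muscle, by log2 differences of 1.26 and 0.56. Acsl6 was at 1628, 1659 and 2159 in muscle, against 1374, 1473 and 1370 in testis, a small difference that passed (0.36, adjusted p = 0.0184, limma). Per kilobase, Acsl1 made up 51.7% ± 11.2 of the summed level of the 5 synthetases in wild-type muscle and 71.2% ± 0.51 in wild-type testis.

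The thioesterases Acot1 and Acot2 lie side by side on chromosome 12 and split acyl-CoA in the cytosol and in mitochondria. Acot2 was at 237, 258 and 253 in wild-type muscle (A, B, C), against 7.06, 10.8 and 14.2 in wild-type testis, with no overlap (log2 difference 4.47, SE 0.27, adjusted p = 1.03e-06, limma). Acot1 was at 17.1, 11.9 and 20.5 in muscle, against 14.1, 8.33 and 9.19 in testis, and was the gene of the 36 that did not pass (log2 difference 0.60, SE 0.35, adjusted p = 0.134, 95% interval -0.20 to 1.41, limma). The longest protein-coding transcripts of the pair were 93.8% identical over 1337 aligned columns, so reads may be shared between them and their levels are uncertain. The 250 bases before their RefSeq starts were aligned end to end and were 50.2% identical over 295 columns with gaps. These windows are shown because the pair differs in tissue level (RefSeq, GRCm38.p6, both on the plus strand, chr12:83987611-83987860 for Acot2 and chr12:84009252-84009501 for Acot1). Capitals mark the CCAAT box, read on either strand.
Acot2: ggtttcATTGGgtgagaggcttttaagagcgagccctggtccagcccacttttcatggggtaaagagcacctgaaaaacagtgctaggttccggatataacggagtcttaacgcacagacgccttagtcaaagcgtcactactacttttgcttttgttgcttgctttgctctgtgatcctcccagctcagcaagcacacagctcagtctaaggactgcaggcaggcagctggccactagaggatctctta
Acot1: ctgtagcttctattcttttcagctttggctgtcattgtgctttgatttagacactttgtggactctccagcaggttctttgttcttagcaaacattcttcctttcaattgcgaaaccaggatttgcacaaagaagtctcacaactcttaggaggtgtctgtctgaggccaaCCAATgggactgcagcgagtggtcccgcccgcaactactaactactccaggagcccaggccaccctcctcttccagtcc
The match starts 244 bases before the start of Acot2, where it is written on the other strand as ATTGG, and 79 bases before that of Acot1.

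In the carnitine shuttle group the 3 isozymes of carnitine palmitoyltransferase 1 were divided between the tissues. Cpt1a and Cpt1b encode enzymes that move acyl groups onto carnitine at the outer mitochondrial membrane. Cpt1c is grouped with them by family, and its RNA level is not a measure of that reaction. Cpt1c, an isozyme best known from neurons, was at 52.4, 46.5 and 65.5 in wild-type muscle (A, B, C), against 883, 1010 and 985 in wild-type testis (log2 difference -4.12, SE 0.15, adjusted p = 4.34e-08, limma). Its muscle mean was 5.71% of its testis mean. The germ-cell marker sum in wild-type muscle was at most 1.36% of that in wild-type testis. The part of testis transcripts in the muscle values of Cpt1c was not tested. Cpt1a, the isozyme of liver, was at 206, 292 and 288 in muscle, against 447, 463 and 491 in testis (log2 difference -0.85, SE 0.15, adjusted p = 0.000623, limma). Both genes were lower in all 3 muscle libraries. Cpt1b, the isozyme of muscle, was at 773, 934 and 832 in muscle, against 725, 709 and 590 in testis (log2 difference 0.33, SE 0.11, adjusted p = 0.0218, limma). That small difference did not pass without wild-type muscle B (adjusted p = 0.0786), without wild-type testis C (0.0730) or with all 12 libraries in the model (0.184), within a range of 0.000646 to 0.184 over 17 alternatives.

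Per kilobase, Cpt1b made up 85.1% ± 1.56 of the summed CPT1 level in wild-type muscle and 46.2% ± 3.88 in wild-type testis. Cpt1c made up 3.34% ± 0.71 in wild-type muscle and 39.6% ± 2.91 in wild-type testis. Both shares lay apart in the 3 libraries of each tissue. They depend on the merged exon lengths, 3.37 kb for Cpt1b and 5.6 kb for Cpt1c. Before division by length, Cpt1c stood above Cpt1b in wild-type testis, with means of 960 and 674. The annotation places 81.4% of the Cpt1b exon length under Gm44502, another protein-coding gene on the same strand, so its counts depend on how the authors assigned such reads. Cpt2, the inner-membrane partner, and Slc25a20, the carnitine-acylcarnitine exchanger, were higher in muscle by log2 differences of 0.76 and 1.85. Mlycd, which removes the CPT1 inhibitor malonyl-CoA, was higher by 3.88, with means of 1491 ± 204 in muscle and 100.2 ± 10.4 in testis.

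All 16 enzymes of the oxidation cycle itself (dehydrogenases, hydratase to thiolase, enzymes for unsaturated bonds, electron transfer) were called higher in wild-type muscle than in wild-type testis. Their log2 differences were 0.28 to 4.70, with a median of 3.16. The 16 include Acaa1a, a peroxisomal thiolase. Acadm, the medium-chain acyl-CoA dehydrogenase, was at 6024, 5483 and 5010 in muscle, against 239, 232 and 272 in testis (log2 difference 4.47, SE 0.10, adjusted p = 4.34e-09, limma). Eci1, which shifts double bonds so that unsaturated chains can be oxidised, was at 1780, 1632 and 1661 in muscle, against 60.9, 57.5 and 74.3 in testis (log2 difference 4.70, SE 0.12, adjusted p = 7.54e-09, limma). For both genes the tissues were far apart and the mice of a tissue close together. Acadl, Acadvl and Acads, which take the other chain lengths, were higher by 3.85, 3.91 and 3.47. The electron carriers Etfa and Etfb and their oxidoreductase Etfdh were higher by 3.68, 2.35 and 2.52. In the annotation, 42.9% of the Acadvl exon length lies over Dvl2 on the other strand and 53.0% of that of Etfb under Gm45233 on the same strand. How strand was handled is not given in the sources used here, so reads of such pairs cannot be told apart.

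Cpt1c had the most negative tissue difference of the 36 and Acadm one of the 5 largest positive ones, and their 250-base windows before the RefSeq starts are shown for that reason (RefSeq, GRCm38.p6, both on the minus strand, chr7:44974852-44975101 for Cpt1c and chr3:153944644-153944893 for Acadm). Capitals mark AGGTCA, the core motif of many nuclear receptors, read on either strand.
Cpt1c: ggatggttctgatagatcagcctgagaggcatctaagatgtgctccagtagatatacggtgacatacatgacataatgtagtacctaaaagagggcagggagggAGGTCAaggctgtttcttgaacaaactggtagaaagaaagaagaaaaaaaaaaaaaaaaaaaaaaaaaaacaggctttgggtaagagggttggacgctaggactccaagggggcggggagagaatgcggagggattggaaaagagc
Acadm: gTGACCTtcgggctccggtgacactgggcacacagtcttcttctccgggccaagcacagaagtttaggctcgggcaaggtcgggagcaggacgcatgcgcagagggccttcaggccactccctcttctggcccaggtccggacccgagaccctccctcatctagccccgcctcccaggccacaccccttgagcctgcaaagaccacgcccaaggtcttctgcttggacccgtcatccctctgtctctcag
The match starts 146 bases before the start of Cpt1c and, written as TGACCT, 249 bases before that of Acadm. Of the 34 windows that RefSeq gave for 31 of the 36 genes, 7 held AGGTCA on either strand (20.6%), as did 14.0% of all 32851 windows of this length. A direct repeat of AGGTCA with 1 base (N) between the copies, the consensus of the peroxisome proliferator-activated receptors, was in none of the 34 and in 0.0335% of all. TCAAGGTCA, the consensus of the oestrogen-related receptors, which contains AGGTCA, was in 1 of the 34 (Acsl6) and in 0.387% of all. GGGCGG was in 67.6% of the 34 and 32.7% of all, CCAAT in 52.9% and 33.8%, and TATAAA in none of the 34 and 12.4% of all. A match describes letters only, and no match says only that these letters are not in the window.

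Hadha and Hadhb encode the alpha and beta subunits of the mitochondrial trifunctional protein, which carries out the last reactions on long chains, and they are transcribed away from each other from 1 short stretch of chromosome 5. Hadha was at 5548, 5456 and 4980 in wild-type muscle (A, B, C), against 4413, 4439 and 4308 in wild-type testis (log2 difference 0.28, SE 0.08, adjusted p = 0.00858, limma). Hadhb was at 5960, 5648 and 5170 in muscle, against 1509, 1581 and 1617 in testis (log2 difference 1.83, SE 0.08, adjusted p = 1.39e-07, limma). Hadha was thus nearly level between tissues where Hadhb was not. The ratio of Hadha to Hadhb in normalised counts was 0.931, 0.966 and 0.963 in wild-type muscle, against 2.92, 2.81 and 2.66 in wild-type testis. In testis labelled mutant it was 2.70, 2.57 and 2.73. In mutant muscle it was 0.989 in D, 0.996 in F and 0.611 in G. The ratio separated the tissues in all 12 libraries, although an exact two-sided permutation test of 3 wild-type libraries against 3 cannot go below p = 0.1, and mutant muscle G stood below the other 5 muscle libraries. RefSeq starts of the pair are 272 bases apart. GENCODE M21 starts Hadha at 30155162 and Hadhb at 30155248, so by that annotation part of the window below lies inside Hadha. The window below holds the 250 bases before the Hadhb start (RefSeq, GRCm38.p6, plus strand, chr5:30155003-30155252) and shares 228 bases with the window of Hadha. Capitals mark the GC box GGGCGG.
Hadhb: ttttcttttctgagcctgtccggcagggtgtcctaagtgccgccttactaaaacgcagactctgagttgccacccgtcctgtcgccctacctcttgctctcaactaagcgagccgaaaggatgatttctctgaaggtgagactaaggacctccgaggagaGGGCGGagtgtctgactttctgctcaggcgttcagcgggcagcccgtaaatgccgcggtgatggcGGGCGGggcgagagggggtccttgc
The matches start 90 and 25 bases before the Hadhb start.

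**Figure D2:**
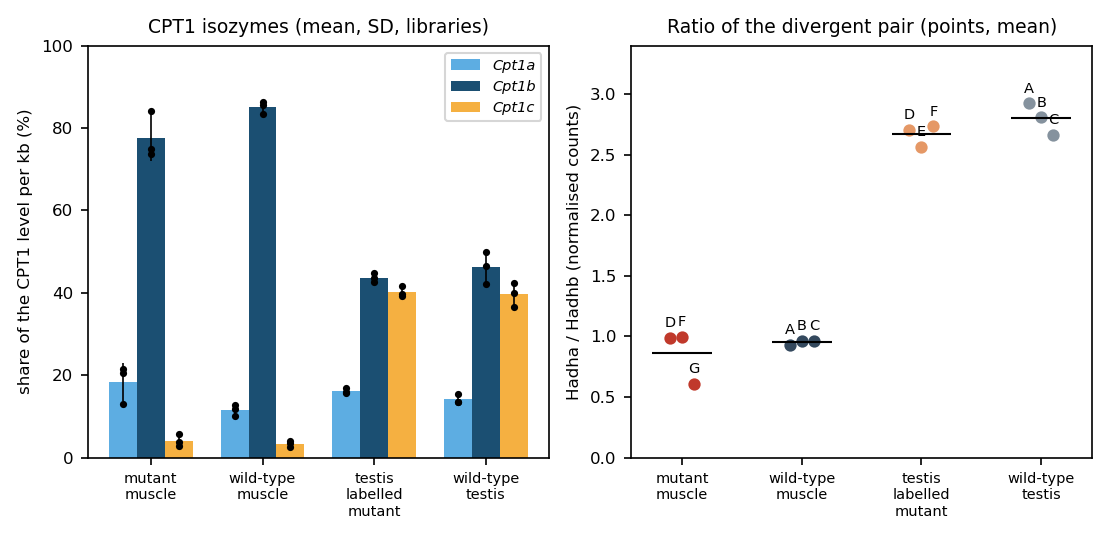
Left: share of each CPT1 isozyme in the summed level per kb of exon (%), bars with the group mean, SD and 3 libraries. Right: ratio of Hadha to Hadhb in normalised counts by library (points with mouse letters, lines at the means). Cpt1b holds 85.1% in wild-type muscle and shares testis with Cpt1c, and the Hadha to Hadhb ratio lies between 0.611 and 0.996 in muscle and between 2.57 and 2.92 in testis.

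The other steps lay between these cases. Hadh and Echs1, which act on shorter chains, were higher in wild-type muscle by log2 differences of 2.83 and 3.13, and the mitochondrial thiolase Acaa2 by 3.18. Acaa1a, a peroxisomal thiolase, was higher by 2.19, but its longest transcript is 96.6% identical to that of Acaa1b over 1428 aligned columns, so its level is uncertain. Eci2 and Decr1, which act on unsaturated chains, were higher by 2.92 and 4.01. The regulators were low in testis. Ppara, the receptor that drives genes of fatty acid oxidation, was at 208, 136 and 66.8 in wild-type muscle, against 25.6, 32.5 and 13.4 in wild-type testis. Ppard and the coactivator Ppargc1a were higher in muscle by 3.51 and 3.34.

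**Figure D3:**
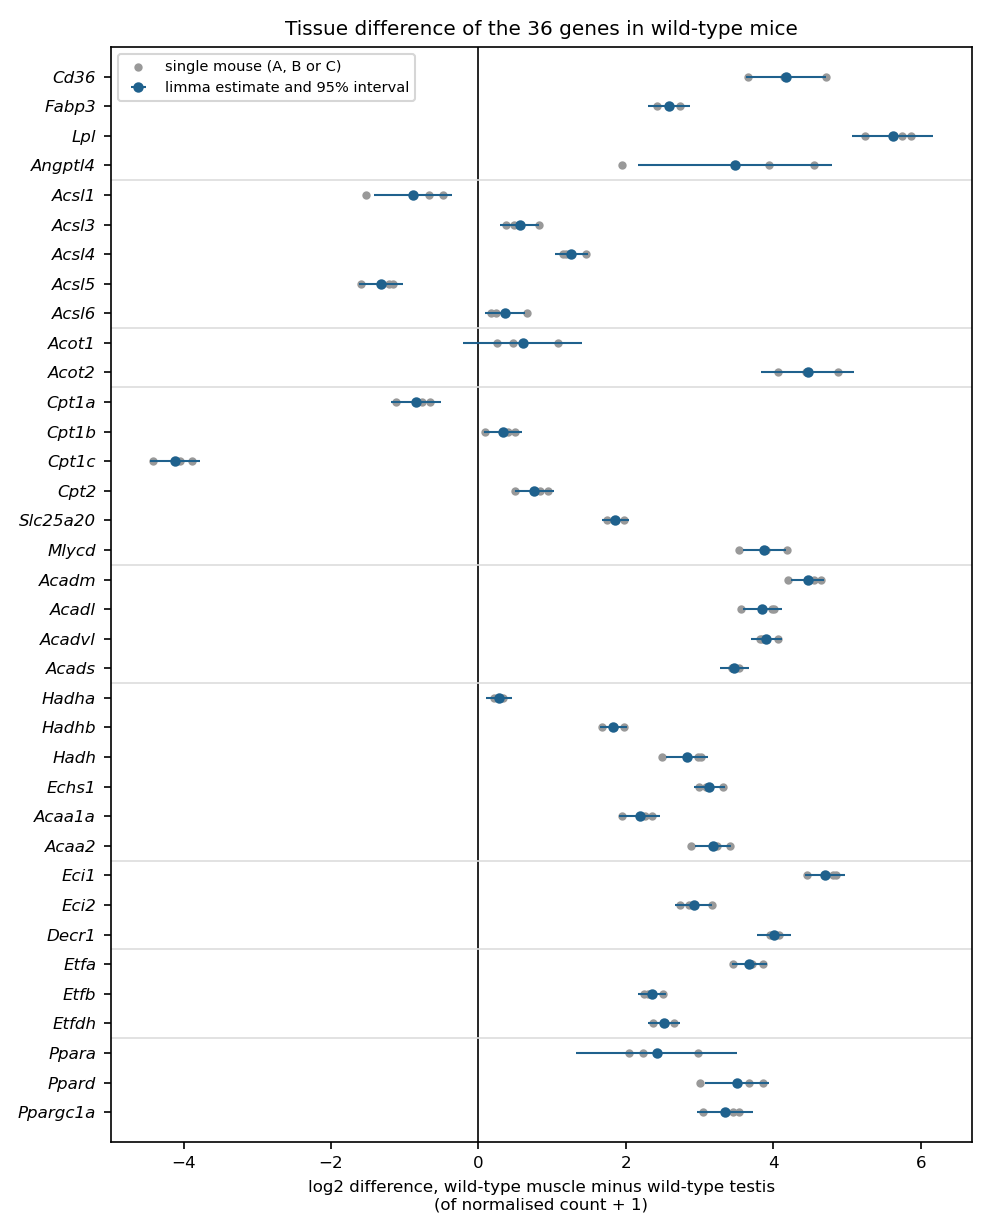
Log2 difference between wild-type muscle and wild-type testis for each of the 36 genes (x axis, on log2 of normalised count + 1). Blue points are limma estimates with 95% intervals, and grey points are the differences within mice A, B, C. All but Cpt1c, Acsl5, Acsl1 and Cpt1a lie to the right of 0, with Lpl the farthest at 5.62 and Cpt1c the lowest at -4.12.

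Of 77 further genes of fatty acid metabolism, 72 were tested between the wild-type tissues, and 41 were called higher and 24 lower in muscle. Of all genes tested, 87.5% were called, 36.5% as higher and 51.1% as lower. The genes of fuel choice Pdk4, which inhibits pyruvate dehydrogenase, Ucp3, a carrier of the inner mitochondrial membrane, and Prkaa2, a catalytic subunit of AMP-activated kinase, had the largest positive differences, of 7.21, 6.74 and 6.51. The largest negative differences were those of a carnitine carrier, a binding protein and a pair of synthetases. Slc22a16, a carnitine transporter, averaged 27.3 ± 4.16 in muscle and 3270 ± 18.7 in testis, and Fabp9, the fatty acid-binding protein of testis, averaged 76.7 ± 13.9 in muscle and 6761 ± 101 in testis. The synthetases Acsbg2 and Acsbg1 were lower in muscle by log2 differences of -6.55 and -6.02.

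The comparison of mutant with wild-type muscle asks whether the Bckdk mutation goes with another level of these genes. None of the 36 was called (limma, Benjamini-Hochberg over 16246 genes, of which 0.0369% were called), and the lowest adjusted p was 0.519. At an unadjusted p below 0.05 there was 1 (Cpt1b), in a background of 9.52%. On the recovered reads edgeR and DESeq2 also called 0 of the 36, with 2 and 4 at an unadjusted p below 0.05. The 36 genes had a median log2 difference of 0.07 (all genes -0.04), with 22 above 0 and 14 below, where 44.5% of all genes tested were above 0. That balance turned without mutant library G, to a median of -0.04 with 14 above 0 and 22 below, and without F and G, the libraries with more islet transcripts, to -0.05 with 10 above and 26 below. No member lay higher in all 3 mutant libraries than in all wild-type ones (background 5.11%), and 3 lay lower, Acsl3, Acsl4 and Cpt1c (background 8.85%). The median width of a 95% interval to each side was 0.36 on the log2 scale, so differences below about that size could not be resolved with these libraries. That width is not adjusted for the number of genes tested. Larger differences also went uncalled, among them -0.83 for Ppara, -0.70 for Cpt1b and 0.70 for Angptl4, so the absence of calls does not exclude changes above 0.36.

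**Figure D4:**
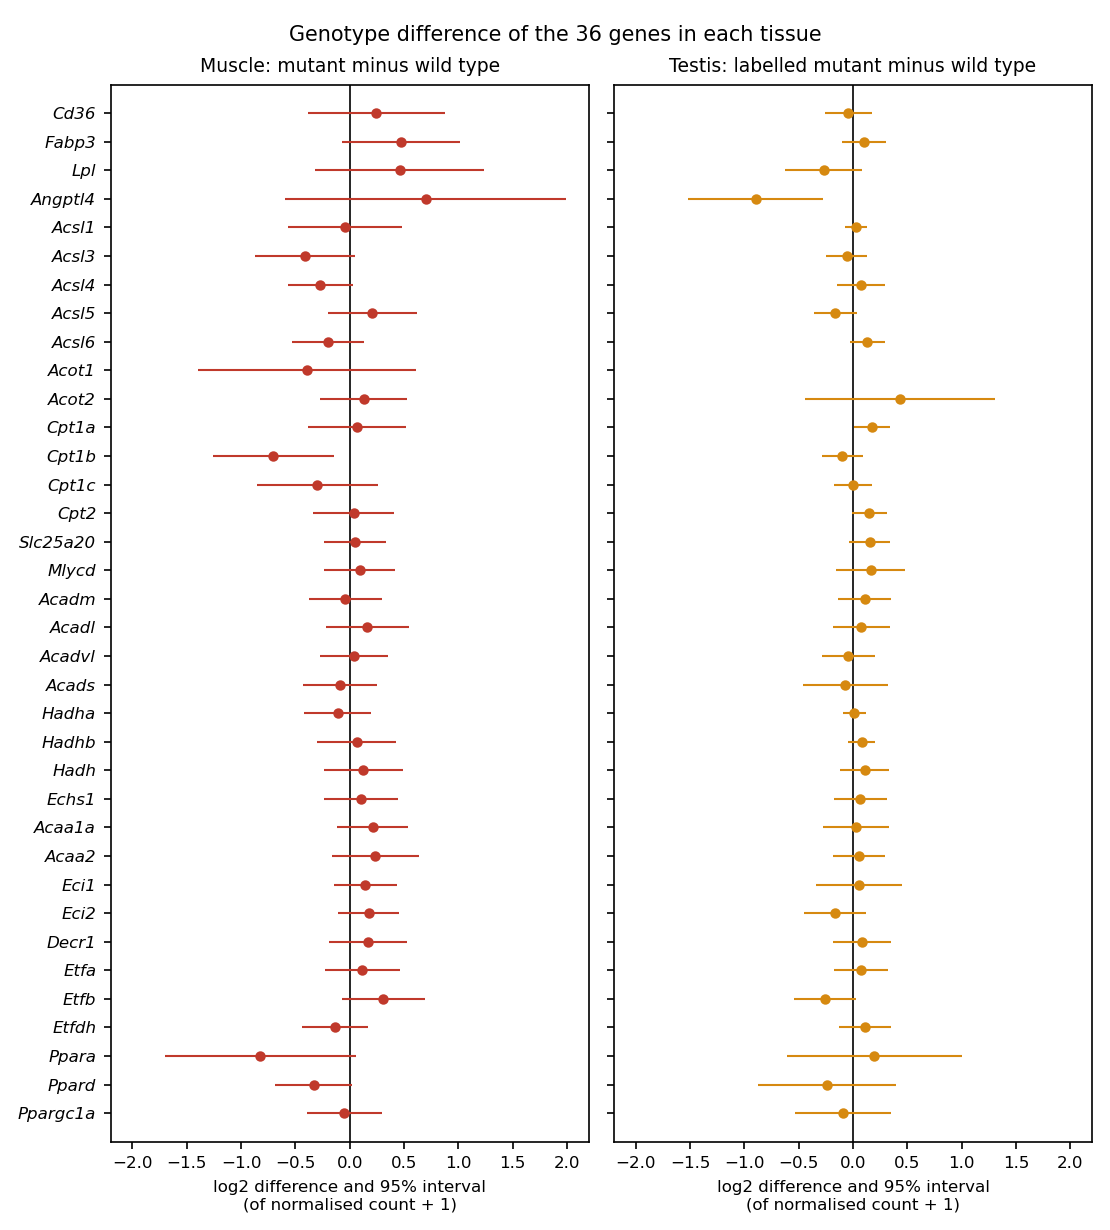
Log2 difference by genotype for each of the 36 genes with its 95% interval (limma, on log2 of normalised count + 1), in muscle (left, mutant minus wild type) and in testis (right, labelled mutant minus wild type). Most intervals span 0, and the exceptions, Cpt1b in muscle and Angptl4 and Cpt1a in testis, did not pass the adjustment over all genes; Acot1 was not tested in testis.

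Cpt1b had the smallest p of the 36. It was at 803, 509 and 340 in mutant muscle (D, F, G), against 773, 934 and 832 in wild-type muscle (A, B, C). F and G lay below all wild-type libraries and D lay among them (log2 difference -0.70, SE 0.25, 95% interval -1.26 to -0.15, adjusted p = 0.519, limma). Without D the difference was -1.02 and passed (adjusted p = 0.0264, limma), the only pass among 17 alternatives. Over these the difference ran from -1.02 to -0.07. Leaving out D brought many genes past the threshold, 497 of all 15964 tested and 2 of the 36, against 6 of 16246 with D. Per kilobase, Cpt1b made up 77.6% ± 5.70 of the summed CPT1 level in mutant muscle and 85.1% ± 1.56 in wild-type muscle, and Cpt1a made up 18.3% ± 4.61 in mutant muscle and 11.6% ± 1.30 in wild-type muscle. F and G were the libraries with more islet transcripts, and the part of these in the Cpt1b values was not tested. Cpt1a itself was at 282, 330 and 214 in mutant muscle against 206, 292 and 288 in wild type, and these overlapped.

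Fabp3 lay in the other direction. It was at 4807, 9126 and 9406 in mutant muscle (D, F, G), against 4567, 5313 and 6382 in wild-type muscle (A, B, C), so F and G were above and D among the wild-type values (log2 difference 0.47, SE 0.25, adjusted p = 0.548, limma). Without D, where 497 of all 15964 genes tested passed, the difference was 0.79 (adjusted p = 0.0440, limma), the only pass among 17 alternatives. Without F and G it was -0.16. F and G were also the libraries with more islet transcripts, and the part of these in the Fabp3 values was not tested. The sum of 10 slow-fibre markers was 8493, 10693 and 11760 in mutant muscle (D, F, G), against 2985, 11024 and 4034 in wild-type muscle (A, B, C), with none at 0. All 10 had a positive difference, with a median of 1.61, and none was called. Atp2a2, a calcium pump, was the most abundant of the 10 in every library and is not particular to muscle, and the sum was 5436 to 5884 in wild-type testis. Slow fibres are known for a high content of this binding protein, and the part of fibre type was not tested either. Zcchc17, which overlaps the Fabp3 exons on the other strand by 81 bases, was at 28.0% of the Fabp3 level in mutant muscle and 27.7% in wild-type muscle, so its counts moved with those of Fabp3.

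The regulators and synthetases with the next smallest p leaned lower in mutant muscle, and none passed. Ppara was at 106, 46.9 and 67.3 in mutant muscle (D, F, G), against 208, 136 and 66.8 in wild-type A, B, C (log2 difference -0.83, SE 0.40, adjusted p = 0.531, limma). Ppard, a related receptor, was at 389, 369 and 286, against 388, 473 and 447 in wild type (-0.33, SE 0.16, adjusted p = 0.534, limma). Wild-type C overlapped the mutant values of Ppara and wild-type A those of Ppard. Acsl4 was at 559, 509 and 620 in mutant muscle, against 725, 634 and 677 in wild type (-0.27, SE 0.14, adjusted p = 0.536, limma), and Acsl3 at 436, 729 and 743, against 747, 759 and 982 in wild type (-0.41, SE 0.21, adjusted p = 0.538, limma). Both synthetases were lower in every mutant library, by narrow gaps. Ppargc1a averaged 472 ± 61.6 in mutant muscle and 489 ± 64.7 in wild-type muscle.

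All 4 genes of the uptake group, which includes the lipase inhibitor Angptl4, had a positive difference in muscle. For Lpl, Cd36 and Angptl4 the spread between mice was wide. Lpl was at 12352, 11669 and 29720 in mutant muscle (D, F, G), against 14798, 14212 and 7856 in wild-type muscle (log2 difference 0.46, 95% interval -0.32 to 1.24). Cd36 was at 5367, 6026 and 10255, against 8012, 6354 and 3909 in wild type, and Angptl4 at 283, 499 and 1053, against 685, 437 and 116 in wild type. For all 3 genes the highest library was mutant G and the lowest wild-type C, with the other 4 between them. The fat cell marker sum was 60671, 54116 and 139227 in mutant muscle (D, F, G), against 75046, 58169 and 21611 in wild-type muscle, again with G highest and C lowest. Car3 was the most abundant of the 12 in every muscle library, and how much of it came from fat cells was not tested. All 12 fat cell markers had a positive difference between the genotypes, with a median of 0.75, and none was called. The endothelial sum was 9873, 9594 and 11097 in mutant muscle, against 9848, 9571 and 8856 in wild-type muscle, likewise with G highest and C lowest. Of the 10 endothelial markers, 8 had a positive difference, with a median of 0.23, and none was called. The part of fat cells or of vessels in the uptake values was not tested. These differences rested on single libraries. Without G, Lpl had 0.02 and Cd36 -0.04, and without wild-type C, Angptl4 had -0.05 and Cd36 -0.04. Without F and G, the libraries with more islet transcripts, Angptl4 had -0.21, Cd36 -0.12 and Lpl 0.06.

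**Figure D5:**
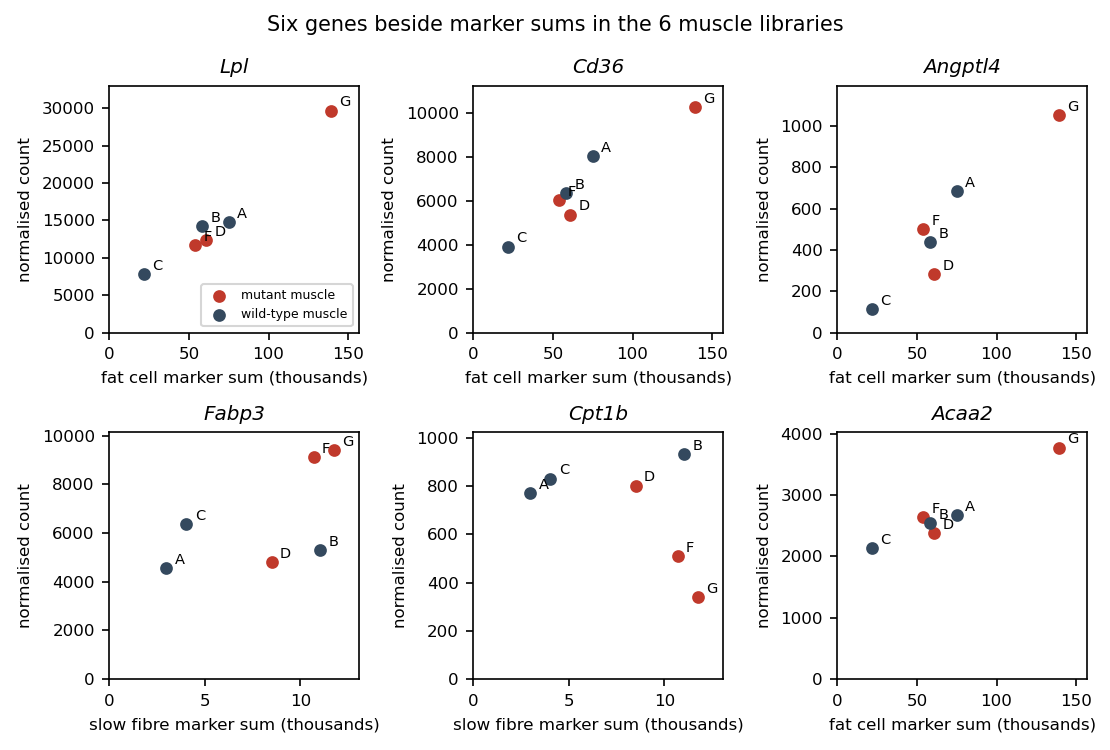
Normalised counts of Lpl, Cd36, Angptl4 and Acaa2 against the summed level of 12 fat cell markers, and of Fabp3 and Cpt1b against that of 10 slow-fibre markers, in the 6 muscle libraries (red, mutant; dark, wild type; letters are mice, axes from 0). Car3 leads the fat cell marker sum in every library shown. Mutant G is at the upper right and wild-type C at the lower left of the 4 fat cell panels. Mutant F and G stand apart from the rest for Fabp3 and Cpt1b.

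The 16 cycle enzymes, with the peroxisomal Acaa1a among them, had small differences by genotype in muscle, and none was called. There were 12 differences above 0 and 4 below, with a range of -0.13 to 0.31 and a median of 0.12. The outermost bounds of their 95% intervals were -0.44 and 0.69. Etfb had the largest difference among them and was at 1258, 1474 and 2049 in mutant muscle (D, F, G), against 1240, 1211 and 1331 in wild type (log2 difference 0.31, SE 0.17, adjusted p = 0.559, limma). Library G was the highest of the 6 muscle libraries for 14 of the 16 and for 22 of the 36 genes (61.1%), where it was highest for 23.6% of all genes, and the median deviation of the 16 from the wild-type mean was 0.38 in G, -0.01 in D and -0.06 in F on the log2 scale. G also had the most mitochondrially encoded reads and the largest fat cell marker sum of the muscle libraries. Its fast-fibre marker sum was the lowest, at 1521747 against 2015692 to 2697440 in the others, and its slow-fibre sum of 11760 the highest. With F it was a library with more islet transcripts. The part of any of these was not tested. The sign of 1 gene (Acadm) turned when the libraries were scaled by TMM and that of 3 (Acsl1, Ppargc1a, Acadm) by the median of ratios, all with differences near 0.

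The values of single genes by library were as follows. Acadm was at 4996, 4894 and 6222 in mutant muscle (D, F, G), against 6024, 5483 and 5010 in wild-type muscle. Acaa2 was at 2374, 2644 and 3772 in mutant muscle, against 2670, 2540 and 2135 in wild type. D and F lay below all wild-type values for Acadm and among them for Acaa2. For both genes G was highest. Hadha departed from this order, at 5264, 5126 and 4432 in mutant muscle against 5548, 5456 and 4980 in wild type, with G the lowest of the 6. Cpt1c was at 45.6, 41.8 and 44.6 in mutant muscle, against 52.4, 46.5 and 65.5 in wild type, lower in every mutant library by a narrow gap. Acot2 was at 210, 304 and 317 in mutant muscle, against 237, 258 and 253 in wild type, and the groups overlapped through D. The 3 genes for unsaturated chains had positive differences between 0.14 and 0.18, and all 3 regulators negative ones between -0.83 and -0.05, with none called in either role.

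Among the 77 other genes, 70 were tested in muscle and 0 were called by limma, with 6 at an unadjusted p below 0.05, against 9.52% of all genes. Acacb, which makes malonyl-CoA at the mitochondrial surface, was at 4289, 2928 and 2336 in mutant muscle (D, F, G), against 4759, 5480 and 4344 in wild type, lower in each mutant library (log2 difference -0.65, SE 0.21, adjusted p = 0.519, limma). Acox3, a peroxisomal oxidase, was at 298, 346 and 266, against 396, 405 and 381 in wild type (-0.38, SE 0.15, adjusted p = 0.519, limma). Fabp5 was at 350, 283 and 603 in mutant muscle, against 298, 273 and 164 in wild type, and overlapped. Acsbg2 was at 31.9, 9.17 and 11.4, against 34.1, 47.6 and 28.2 in wild type. Acsbg2 stood higher in wild-type testis than in wild-type muscle. The germ-cell marker sum stood at 3168, 1166 and 1178 in mutant muscle (D, F, G), against 2637, 2376 and 2896 in wild type. The part of testis transcripts in the Acsbg2 values was not tested.

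In testis, 35 of the 36 genes passed the filter (Acot1 did not) and none was called between the libraries labelled mutant and wild type (limma, 19543 genes, of which 0.0205% were called). At an unadjusted p below 0.05 there were 2, against 7.09% of all genes. On the recovered reads edgeR and DESeq2 called 0 of the 35 too, with 2 and 1 at an unadjusted p below 0.05. The median log2 difference was 0.06 (all genes 0.03), with 22 above 0 and 13 below, where 59.6% of all genes tested were above 0. With TMM scaling, 19 were above 0 and 16 below. Without wild-type testis A and B, the libraries with more islet transcripts, the median was 0.0024, with 18 above 0 and 17 below. Groups did not overlap for 4 genes. Cpt1a, Cpt2 and Slc25a20 were higher in every library labelled mutant (background 9.72%) and Angptl4 lower (background 3.67%). The interval to each side was 0.24 at the median, narrower than in muscle.

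Angptl4 had the smallest p in testis and a low level. It was at 12.1, 16.6 and 16.0 in D, E, F labelled mutant, against 28.2, 27.5 and 29.2 in wild-type A, B, C (log2 difference -0.90, SE 0.28, 95% interval -1.52 to -0.28, adjusted p = 0.696, limma). All libraries labelled mutant were below all wild-type ones, but the difference did not pass over all genes. The fat cell marker sum was 6356 to 6763 in testis labelled mutant and 6421 to 6428 in wild-type testis. The carnitine shuttle genes differed by small amounts. Cpt1a was at 530, 538 and 512 in libraries labelled mutant, against 447, 463 and 491 in wild type (0.17, SE 0.08, adjusted p = 0.698, limma). Cpt2 was at 717, 733 and 694, against 678, 597 and 661 in wild type (0.15, SE 0.07, adjusted p = 0.722, limma), and Slc25a20 at 425, 439 and 402, against 352, 401 and 386 in wild type (0.15, SE 0.09, adjusted p = 0.747, limma). Each of the 3 was higher in all libraries labelled mutant, but the gap between the groups was smaller than the SD of the wild-type group for all 3.

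Etfb and Acsl5 had negative differences in testis. Etfb was at 171, 249 and 203 in libraries labelled mutant, against 251, 255 and 233 in wild type (-0.26, SE 0.13, adjusted p = 0.735, limma), and Acsl5 at 537, 432 and 489, against 556, 520 and 553 in wild type (-0.16, SE 0.09, adjusted p = 0.747, limma). Both overlapped, Etfb through library E and Acsl5 through library D. Acsl1, the most abundant synthetase of testis, averaged 11450 ± 359 in libraries labelled mutant and 11257 ± 310 in wild type, and the 95% interval of its log2 difference was -0.08 to 0.12. Of the 16 cycle enzymes, 12 had positive and 4 negative differences, between -0.26 and 0.11. Fast-fibre markers summed to 14865, 13363 and 13493 in D, E, F labelled mutant, against 6277, 338 and 15118 in wild-type A, B, C, with Tnni2 at 0 in B and no other marker of the list at 0, and the part of muscle transcripts in these values was not tested. Among the other genes of the pathway, 71 were tested and 0 were called by limma, with 3 at an unadjusted p below 0.05, against 7.09% of all genes. Hsd17b10, a short-chain dehydrogenase that also serves isoleucine breakdown, was at 108, 110 and 87.9 in libraries labelled mutant, against 82.1, 67.5 and 69.3 in wild type (0.48, SE 0.16, adjusted p = 0.696, limma). Acsbg1 averaged 1740 ± 105 and Fabp9 7406 ± 298 in libraries labelled mutant, against 1526 ± 25.3 and 6761 ± 101 in wild type (0.19 and 0.13, adjusted p = 0.696 for both, limma). Dbi, the acyl-CoA-binding protein, had the next smallest p (0.32, SE 0.15, adjusted p = 0.705, limma).

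The genotype difference in muscle was set against that in testis by the interaction of genotype and tissue in 1 model of all 12 libraries, with the testis groups taken by label. Of the 35 genes tested, 0 were called (limma, 14677 genes, of which 0.0136% were called), 3 had an unadjusted p below 0.05 against 8.69% of all genes, and edgeR and DESeq2 called 0 with 2 each at that level. The 3 were Etfb, with 0.31 in muscle and -0.26 in testis (difference 0.57, SE 0.24), Acsl4, with -0.27 and 0.08 (-0.35, SE 0.16), and Eci2, with 0.18 and -0.17 (0.34, SE 0.16), each with an adjusted p of 0.574 (limma). Angptl4 had the next smallest p and the largest difference in size, 1.59 (SE 0.78, 95% interval -0.10 to 3.28, adjusted p = 0.582, limma), from 0.70 in muscle and -0.90 in testis. Next by p were Acsl6 and Cpt1b, with -0.33 and -0.60 (adjusted p = 0.586 and 0.590, limma). Without mutant muscle D, Cpt1b (-0.92, adjusted p = 0.0205, limma) and Fabp3 (0.69, adjusted p = 0.0468, limma) passed, each in only that 1 of 23 alternatives. In that fit 951 of all 14482 genes tested passed, beside these 2 of the 35. Of the other genes of the pathway, 69 were tested for this difference and 0 were called, with 4 at an unadjusted p below 0.05 (Acsbg2, Slc22a16, Acox3 and Rxra). The median of the 35 was -0.02 (0.06 with TMM scaling), and that of all genes was -0.08.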

How the data were processed

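Per the labels' protocols, RQN exceeded 7.2 for the RNA, which came from some 20 mg of tissue powder, and polyA libraries gave paired reads of 150 bases. The submitters' processing notes list, without an order of use, DESeq2 1.46.0, HTSeq 0.11.2, fastp 0.23.4, Picard 1.119 and HISAT2 2.1.0, with GRCm38.p4 as build. The authors deposited signal values (counted reads over a size factor of the library) for 47730 features, and log2 values (rlog) for 27384. Dividing the values of each library by its smallest non-zero value gave whole reads for 100% of values within 0.001. In both tables, 26 values of testis library D had become dates and were treated as missing, none of them in a gene list used here.

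Log2(normalised count + 1) was fitted with limma 3.58.1 (eBayes with trend, two-sided, R 4.3.3) on genes with at least 10 in at least 3 of a tissue's 6 libraries, either tissue for the tissue comparison and both for the interaction. P-values were adjusted by Benjamini-Hochberg over all genes tested and called below 0.05. The fits recovered known 4-fold changes in data simulated with the same spread for all genes. Small changes like those seen here by genotype, and libraries that stand apart from their group, were not simulated. edgeR 4.0.16 and DESeq2 1.42.0 were run on the recovered reads. Other alternatives were pseudocounts, filters, scalings, rlog values, single libraries left out, a model of all 12 libraries, the libraries with more islet transcripts (over 1.25 times the tissue median) left out, and the mouse as a block. Mouse numbers come from the column names and pair the tissues of 5 of 7 mice; same-mouse libraries had a consensus correlation of -0.05. Exon lengths and overlaps are from GENCODE M21, and upstream windows from RefSeq (GRCm38.p6). The 36 genes, the other lists and the rule for named genes (the called, or else the 6 genes with the smallest p, 4 for the other genes of the pathway, and the 5 largest tissue differences each way) were chosen with earlier results of these data known. Other genes were described after their values were seen.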

Additional observations from a re-analysis of the deposited data

Results flagged for a closer look

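The genotype difference of Bckdk, the targeted gene, differed between the tissues by -8.14 on the log2 scale (limma interaction, SE 0.20, adjusted p = 1.26e-10). It was -7.35 in muscle and 0.79 in testis by label. For NeoR the difference was 3.52 (SE 0.43, adjusted p = 0.0165), from 5.89 in muscle and 2.37 in testis. No gene of fatty acid uptake and oxidation met that test.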

How the results depend on the processing

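Of 702 alternative values of the genes that the naming rule took, 696 kept their direction and side of the threshold, 5 newly passed and 1 reversed, Fabp3 in muscle at -0.16 without the libraries with more islet transcripts; the cause was not tested. Leaving out single libraries gave 0 to 2 members called in muscle and in the interaction, 0 in testis and 33 to 35 between tissues. Genes called in all in muscle (6) became 14 with no filter, 34 with DESeq2, 28 with all 12 libraries in 1 model, and 3 to 497 with a library left out (497 without mutant D, 3 without mutant F, 10 without wild-type B). In testis (4) they became 1 with a pseudocount of 0.5, with a mean of at least 50 or without the libraries with more islet transcripts, 2 with TMM or rlog, 10 with DESeq2, and 1 to 6 with a library left out. In the interaction (2) they became 1 with no filter, a mean of at least 50, edgeR or without the islet libraries, 50 with DESeq2, and 1 to 951 with a library left out (951 without mutant muscle D). The testis median of the members (0.056) became 0.018 with TMM and edgeR, 0.021 with the median of ratios and DESeq2, 0.0024 without the islet libraries, and 0.021 to 0.059 with a library left out. The tissue median (2.71) became 2.03 with rlog; the cause was not tested. TMM moved the median of all genes between tissues by 0.19 and turned no member. With the mouse as a replicate block, 35 members were called between the tissues and 0 in the interaction, where the median was -0.01, and no call changed. No paired analysis was possible within a tissue because mutant and wild-type libraries came from different mice. Acsl6 between tissues lost its call without wild-type testis A (adjusted p = 0.0704) or C (0.0630), within 0.000225 to 0.0704. What sets the width of the intervals was not tested.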
